A study of Homo sapiens with 346 samples.

Results

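Cholesterol and fatty acid synthesis was followed here through 8 genes, HMGCS1, IDI1, FDPS, FDFT1, SQLE, INSIG1, SCD and FASN, taken by name. All 8 were listed in both gene tables, among 31463 genes listed in either table. The study sequenced single cells of the human colorectal carcinoma line HCT-116 and of the hepatocellular carcinoma line HepG2 by Smart-seq2, a plate method that copies full-length mRNA from 1 sorted cell, to find what methanol fixation does to the profile. Each line was taken live, or fixed in 80% methanol and stored for 1 week before the cells were rehydrated and sorted, and neither treatment carried a drug or a genetic change. The tables held 91 live and 92 fixed HCT-116 cells and 68 live and 83 fixed HepG2 cells. The HCT-116 experiment was done once, and the labels do not tell the HepG2 experiments apart, so a line under 1 treatment is taken as 1 sample. Its cells are not replicates, and every comparison between groups is given without a test. The SDs are over cells. The labels name no library batch that holds both live and fixed cells, so treatment and library preparation cannot be told apart.

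Cells make cholesterol from acetyl-CoA through the mevalonate pathway. HMGCS1 makes HMG-CoA, IDI1 isomerises isopentenyl diphosphate, FDPS joins these units to farnesyl diphosphate, FDFT1 (squalene synthase) joins farnesyl units to squalene and SQLE (squalene epoxidase) adds the oxygen that opens the way to the sterol ring. FASN builds saturated fatty acids and SCD places a double bond in them. When membranes are low in sterol, the escort protein SCAP carries the SREBP transcription factors (encoded by SREBF1 and SREBF2) to the Golgi, where proteases free the part that enters the nucleus and turns on genes of both branches. INSIG1 is a target of the same factors and holds SCAP back in the endoplasmic reticulum, which closes the loop. Liver is a main site of this synthesis in the body, and dividing tumour cells of other tissues also use it to build membranes.

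The 8 genes lie on 6 chromosomes: FDPS on chromosome 1, HMGCS1 on 5, INSIG1 on 7, FDFT1 and SQLE on 8, IDI1 and SCD on 10 and FASN on 17. The windows around their transcription starts are shown because genes that vary together in the cells below can be read beside the promoter letters they do or do not share. The windows, from 250 bases before to 50 bases after a start, came from RefSeq (GRCh38.p14) for FDPS, HMGCS1, INSIG1, IDI1 and SCD, and those of SQLE, FDFT1 and FASN were not used here. In the 4 windows printed here, 5′ to 3′ on the strand of the gene, capitals mark the letters CCAAT, read on either strand, and the E-box CACGTG. FDPS lies at chr1:155308616-155308915 on the plus strand, HMGCS1 at chr5:43313363-43313662 on the minus strand, INSIG1 at chr7:155297628-155297927 on the plus strand and SCD at chr10:100346983-100347282 on the plus strand.
FDPS: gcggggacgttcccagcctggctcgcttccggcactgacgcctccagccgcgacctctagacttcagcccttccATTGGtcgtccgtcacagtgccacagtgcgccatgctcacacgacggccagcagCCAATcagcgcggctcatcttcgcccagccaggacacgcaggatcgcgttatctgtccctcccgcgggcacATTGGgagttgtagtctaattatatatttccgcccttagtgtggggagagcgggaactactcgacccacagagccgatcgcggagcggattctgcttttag
HMGCS1: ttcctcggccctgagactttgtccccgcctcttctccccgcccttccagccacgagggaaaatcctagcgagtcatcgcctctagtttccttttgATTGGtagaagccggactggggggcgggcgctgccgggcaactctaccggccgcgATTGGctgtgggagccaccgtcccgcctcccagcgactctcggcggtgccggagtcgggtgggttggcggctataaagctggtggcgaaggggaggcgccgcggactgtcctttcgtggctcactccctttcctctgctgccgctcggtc
INSIG1: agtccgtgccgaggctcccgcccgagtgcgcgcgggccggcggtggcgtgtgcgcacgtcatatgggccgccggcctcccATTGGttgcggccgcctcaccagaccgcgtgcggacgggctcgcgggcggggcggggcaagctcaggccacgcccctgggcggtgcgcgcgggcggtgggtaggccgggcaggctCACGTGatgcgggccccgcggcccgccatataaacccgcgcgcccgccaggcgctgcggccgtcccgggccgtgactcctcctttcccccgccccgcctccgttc
SCD: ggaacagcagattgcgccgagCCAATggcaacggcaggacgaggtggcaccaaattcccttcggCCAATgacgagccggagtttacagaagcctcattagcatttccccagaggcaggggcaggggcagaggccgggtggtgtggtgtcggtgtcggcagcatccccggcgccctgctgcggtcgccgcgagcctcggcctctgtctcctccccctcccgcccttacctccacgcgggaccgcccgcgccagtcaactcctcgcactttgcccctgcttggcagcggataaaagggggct
CCAAT occurred 3 times in the FDPS window, 2 times in the HMGCS1 window, 2 times in the SCD window and 1 time in the INSIG1 window, and 34.6% of all 35116 promoter windows hold it on either strand. CACGTG was found in INSIG1 alone of these 4, against 7.26% of all windows. The GC-box letters GGGCGG were present in all 4, with 6 matches in INSIG1, and in 44.95% of all windows. Of the windows not printed, that of HMGCS1 at chr5:43313132-43313431 held CCAAT 0 times and those of IDI1 0, 3 and 2 times. None of these held CACGTG, and all held GGGCGG. The sterol response element core letters TCACNCCA matched none of the 8 windows of these 5 genes, and matched 3.95% of all windows. These are matches of letters in a short window and say nothing on binding.

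The total reads of a cell, in units of M (mega), ran from 0.7 to 5.3 M in live and 0.2 to 4.9 M in fixed HCT-116 cells (medians 2.5 and 1.8 M), and from 1.5 to 3.7 M in live and 1 to 2.8 M in fixed HepG2 cells (medians 2.4 and 2 M). The 4 listed ribosomal RNA genes took more of the TPM in live cells, with medians of 24.8% live and 7.66% fixed for HCT-116 and 6.86% live and 2.46% fixed for HepG2, so all other genes shared a different part of the total. In HepG2, 1 live and 1 fixed column held the same values for every gene, and 6 fixed columns were more alike than other cells (pairwise Pearson correlation 0.956 to 0.973 on the log scale). The cells labelled HepG2 had little of the liver list: 8 of 15 hepatocyte genes were listed, none was above 1 TPM in at least 50% of the cells, and their summed level had a median of 0.121 TPM in live and 0 in fixed cells. Of 8 luminal breast epithelial genes, 7 were above 1 TPM in at least 50% of these cells, and their summed level ran from 376 to 20207 TPM in live cells. The line is called HepG2 here as the labels do. In HCT-116, 1 of 9 intestinal genes was above 1 TPM in at least 50% of the cells, and the blood and fibroblast lists had medians below 1 TPM in every group.

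FDPS (chr1:155308866-155320665, GRCh38.p14 as for the positions below) was the most abundant of the sterol genes in all 4 groups. FDPS ran from 20.2 to 507 TPM (median 122.5) over live and from 7.12 to 376 TPM (median 148.6) over fixed HCT-116 cells. In HepG2 it ran from 37.5 to 489 TPM (median 245) when live and from 50.9 to 1371 TPM (median 243) when fixed. Both treatments overlapped nearly whole, while the HepG2 medians lay above those of HCT-116. FDFT1 (chr8:11795582-11839298), the next committed step towards sterols, had medians that differed little between the lines. Its lowest, median and highest values were 2.56, 73.6 and 314 TPM in live HCT-116 cells and 0, 92.9 and 462 TPM after fixation. The HepG2 values were 6.002, 78.7 and 350.0 TPM live and 6.002, 104.6 and 377 TPM fixed. IDI1 (chr10:1039152-1056704), which feeds FDPS, was lower than FDPS in every group. The median of IDI1 over live HCT-116 cells was 28.4 TPM, between 2.47 and 158.5, and over fixed ones 29.6 TPM, between 0 and 149.3. For HepG2 the medians were 74.9 TPM live, between 8.23 and 364, and 86.1 TPM fixed, between 8.23 and 373. In HCT-116, 5 fixed cells and no live cell had IDI1 at 0. Its lowest value in live and in fixed HepG2 cells is the same number because it comes from the pair of equal columns.

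SQLE (chr8:124998505-125022283), a rate-limiting oxygenase of the later pathway, had the largest ratio between the lines in live cells. Among HCT-116 cells, live ones held 0 to 86.9 TPM of SQLE with a median of 20.5, and fixed ones 0 to 48.4 TPM with a median of 11.9. Among HepG2 cells, live ones held 2.95 to 319.6 TPM with a median of 66.9, and fixed ones 0 to 136.03 TPM with a median of 39.7. Live HepG2 cells were the highest of the 4 groups and fixed HCT-116 cells the lowest. HMGCS1 (chr5:43287470-43313412), at the entry to the pathway, was the lowest of the sterol genes. Its lowest, median and highest values were 0, 1.98 and 24.8 TPM in live HCT-116 cells and 0, 2.66 and 19.7 TPM after fixation. The HepG2 values were 0.343, 6.12 and 24.1 TPM live and 0.868, 8.21 and 59.4 TPM fixed. By the gene values, every HepG2 cell had some HMGCS1, while 19 live and 29 fixed HCT-116 cells had none. The 7 transcripts matched to HMGCS1 had reads in only 36 of 68 live and 41 of 83 fixed HepG2 cells. The source of the rest of its gene value was not identified, which bears on every HMGCS1 level and share given here. INSIG1 (chr7:155297878-155310235), the sterol-sensing brake, had, with HMGCS1, the largest spread relative to its mean in HCT-116, with an SD over mean of 1.08 in live and 1.24 in fixed cells. INSIG1 ran from 0 to 139.4 TPM (median 16.9) over live and from 0 to 134.2 TPM (median 12.5) over fixed HCT-116 cells. In HepG2 it ran from 0 to 228 TPM (median 34.4) when live and from 0 to 159.9 TPM (median 38.6) when fixed. The HepG2 medians were above those of HCT-116 in both treatments.

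Of the fatty acid genes, SCD (chr10:100347233-100364826) was abundant and FASN (chr17:82078338-82098236) low. The median of SCD over live HCT-116 cells was 132.3 TPM, between 21.6 and 495, and over fixed ones 110.3 TPM, between 24.9 and 434. For HepG2 the medians were 95.7 TPM live, between 12.5 and 226, and 60.8 TPM fixed, between 2.75 and 322. SCD was the 1 gene of the 8 whose medians were lower in HepG2 than in HCT-116 in both treatments. FASN had nearly the same median in all 4 groups. Among HCT-116 cells, live ones held 0.583 to 24.2 TPM of FASN with a median of 6.37, and fixed ones 0 to 20.5 TPM with a median of 6.47. Among HepG2 cells, live ones held 0.101 to 21.2 TPM with a median of 6.87, and fixed ones 0 to 33.1 TPM with a median of 6.99. Its reference transcript is the longest of the 8, at 8464 bases, and TPM divides by length.

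**Figure D1:**
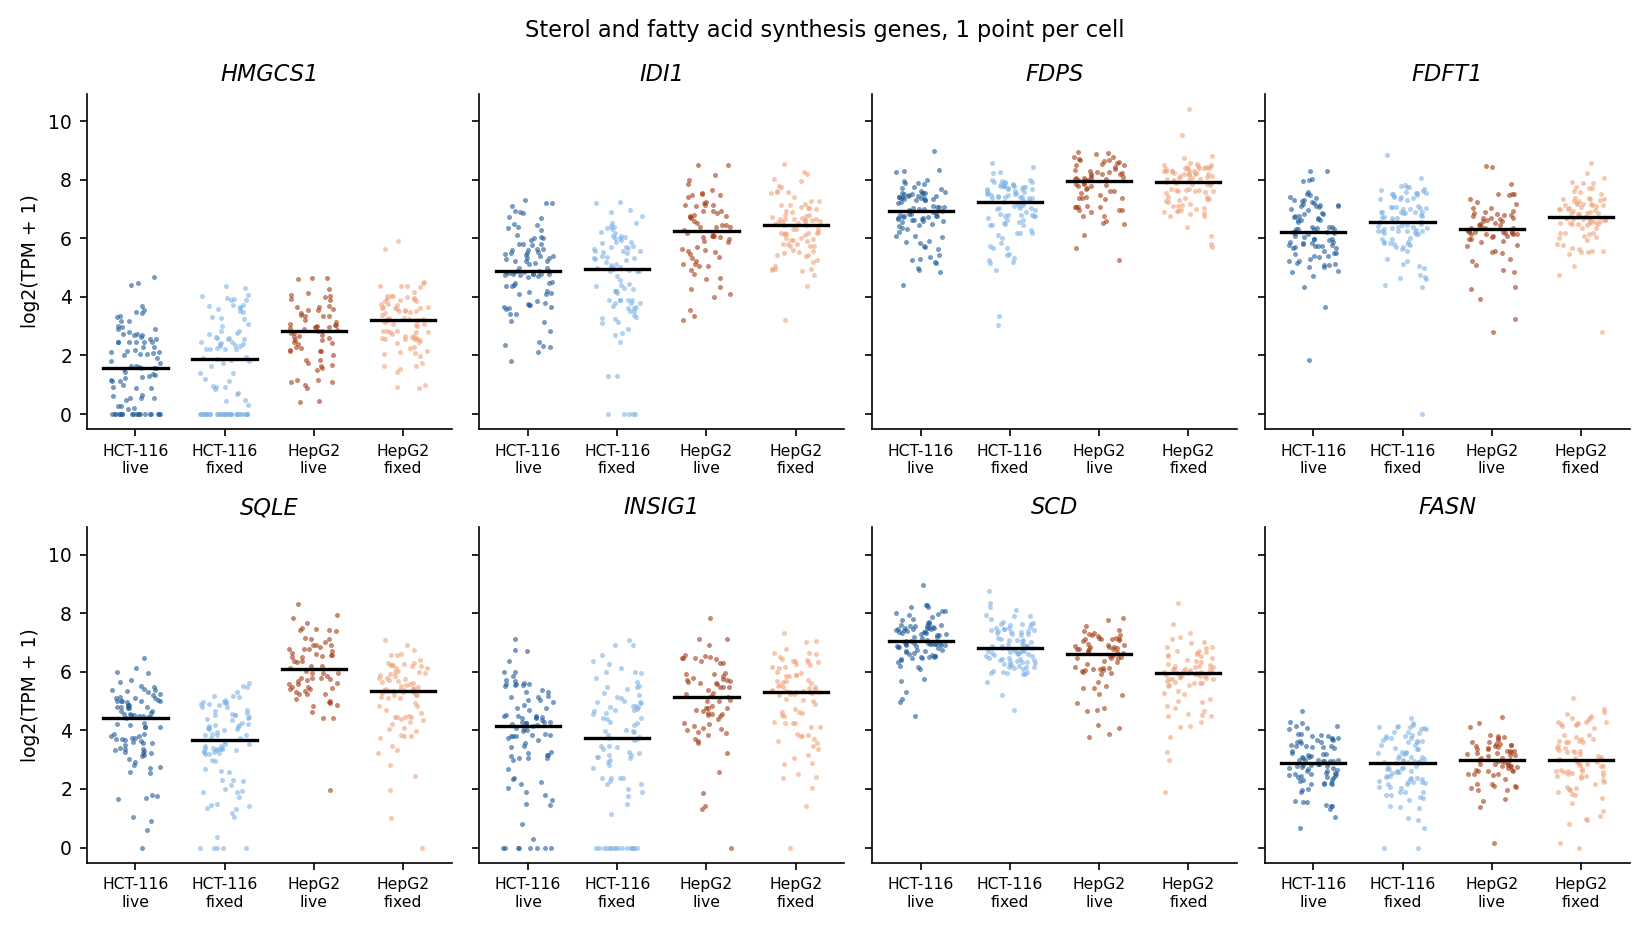
Each point is the log2(TPM + 1) of 1 gene in 1 cell, by line and treatment (91, 92, 68 and 83 cells), and the black bar is the median over cells. SQLE, IDI1, HMGCS1 and INSIG1 sit higher in HepG2 than in HCT-116, FASN is level across the groups, and points at 0 are mostly HMGCS1 and INSIG1 in HCT-116.

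On the TPM scale, which is per length, the order of mean levels in live HCT-116 cells was SCD (149.1 ± 73.1, SD over 91 cells), FDPS (133.8 ± 77.1), FDFT1 (91.99 ± 62.95), IDI1 (41.3 ± 35.5), INSIG1 (22.995 ± 24.7), SQLE (21.8 ± 16.4), FASN (7.502 ± 4.53) and HMGCS1 (3.47 ± 4.54). No neighbours in this order differed by more than the larger of their SDs over cells. In live HepG2 cells FDPS led (246 ± 114.1, SD over 68 cells) and exceeded the next gene by more than that spread. SCD (96.03 ± 49.03), IDI1 (95.8 ± 77.04), FDFT1 (92.8 ± 63.3) and SQLE (85.8 ± 60.1) then lay close together, above INSIG1 (45.1 ± 39.3), and FASN (7.45 ± 3.87) and HMGCS1 (7.27 ± 5.58) came last. In fixed cells, FDFT1 exceeded IDI1 by more than the spread in HCT-116, and INSIG1 exceeded HMGCS1 by more than the spread in HepG2. No other neighbours in the fixed order did. The summed level of the 6 sterol genes ran from 76.9 to 972 TPM over live HCT-116 cells and from 145.8 to 1659 TPM over live HepG2 cells, a ratio of highest to lowest of 12.6 and 11.4.

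The share of cells above 0 TPM was incomplete for HMGCS1 and INSIG1 in HCT-116. HMGCS1 was above 0 in 72 of 91 live HCT-116 cells (79.1%, 95% interval 69.3 to 86.9%) and 63 of 92 fixed HCT-116 cells (68.5%, 95% interval 57.96 to 77.8%), with exact Clopper-Pearson intervals that cover counting error only. INSIG1 was above 0 in 83 of 91 live HCT-116 cells (91.2%, 95% interval 83.4 to 96.1%) and 76 of 92 fixed HCT-116 cells (82.6%, 95% interval 73.3 to 89.7%). In both genes the live and fixed intervals overlap. HMGCS1 reached 68 of 68 live and 83 of 83 fixed HepG2 cells and INSIG1 67 of 68 and 82 of 83. IDI1 was above 0 in 87 of 92 fixed HCT-116 cells (94.6%, 95% interval 87.8 to 98.2%), and SQLE in the same number, against 91 of 91 and 90 of 91 live cells. FDPS and SCD were above 0 in every cell of every group. FDFT1 was at 0 in 1 fixed HCT-116 cell, and FASN was at 0 in 2 fixed HCT-116 cells and 1 fixed HepG2 cell. With each cell thinned to 500000 reads (3 fixed HCT-116 cells had fewer and were left out), SQLE was detected in 97.8% of live and 92.1% of fixed HCT-116 cells and IDI1 in all 91 live and 94.4% of fixed cells. Thinned INSIG1 was detected in 82.4% of live (95% interval 73.02 to 89.6%) and 75.3% of fixed HCT-116 cells (95% interval 65.001 to 83.8%), although in fixed HCT-116 its matched transcripts and its gene value gave the same call of presence in 94.6% of the cells, under the 95% asked for. The matched transcripts of HMGCS1 gave the same call as its gene value in only 49.4 to 71.7% of the cells of a group, so its thinned shares, 29.7% of live and 34.8% of fixed HCT-116 cells, are not read as detection of the gene.

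Fixed cells kept the mean level of all 8 genes within 2-fold of live cells in both lines. Of all genes with a mean of 1 TPM or more in at least 1 of the groups, 13.9% were 2-fold or more apart in HCT-116 (10.1% lower and 3.81% higher in fixed cells) and 17.3% in HepG2 (11.3% lower and 5.98% higher), and with 8 genes a count of 0 is not far from those shares. The median log2 ratio of the 8 genes was -0.03 in HCT-116, against 0.16 over all genes, and 0.05 in HepG2, against 0.14. The all-gene median itself moved with the scaling, to -0.04 and -0.07 when each cell was rescaled by a median ratio taken over genes seen in most cells, and to -0.17 and -0.05 with ribosomal RNA left out. Changes of single genes are therefore also given relative to it.

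Of the 8, SQLE had the lowest ratio of fixed to live cells in both lines. For HCT-116 its mean was 21.8 ± 16.4 TPM live and 14.5 ± 11.5 TPM fixed, a ratio of 0.663, and 85.8 ± 60.1 TPM and 43.5 ± 27.999 TPM in HepG2, a ratio of 0.507. The difference was smaller than the SD over cells of both groups in HCT-116, and in HepG2 smaller than that of live but larger than that of fixed cells. The log2 ratios were -0.59 and -0.98, and -0.76 and -1.12 relative to the all-gene median. Relative to that median SQLE stayed below 0 under every scaling, summary and choice of cells tried, at -0.89 to -0.61 in HCT-116 and -1.12 to -0.89 in HepG2. In HepG2 the difference passed 2-fold when cells were rescaled by the median ratio (log2 -1.14) or ribosomal RNA was left out (-1.14), and was -0.68 in the 46 live and 46 fixed cells paired on total reads within 5%. Without the equal columns it was -0.98 and without the 6 similar fixed columns -0.97. At the transcript level, in CPM that is not divided by length, the main transcript NM_003129 went from 194 ± 127.6 in live to 86.7 ± 62.96 in fixed HepG2 cells, while the predicted XM_011517246 was at 10.7 ± 17.6 and 14.1 ± 20.9.

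SCD was also lower in the fixed cells of both lines, at 149.1 ± 73.1 TPM live and 128.4 ± 66.9 TPM fixed in HCT-116 (log2 ratio -0.22) and 96.03 ± 49.03 and 67.2 ± 45.6 TPM in HepG2 (-0.52). Relative to the all-gene median it was at -0.38 to 0.00 in HCT-116, where the upper end is the difference of mean log2(TPM + 0.1), and at -0.79 to -0.53 in HepG2. HMGCS1 and FDFT1 lay above the all-gene median in both lines under every setting tried. HMGCS1 went from 3.47 ± 4.54 to 4.21 ± 5.004 TPM in HCT-116 and from 7.27 ± 5.58 to 9.86 ± 8.71 TPM in HepG2, with log2 ratios of 0.28 and 0.44. FDFT1 went from 91.99 ± 62.95 to 109 ± 68.95 TPM and from 92.8 ± 63.3 to 119.98 ± 63.5 TPM, with log2 ratios of 0.24 and 0.37. With ribosomal RNA left out the log2 ratios of these genes in HCT-116 were -0.03 and -0.07, so their sign against 0 in that line depended on the scaling. All of these differences are smaller than the SD over cells of either group.

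FDPS, IDI1, INSIG1 and FASN were close to level. The log2 ratio was 0.16 in HCT-116 and 0.05 in HepG2 for FDPS, and -0.03 and -0.05 for INSIG1. For IDI1 it was -0.16 and 0.06. For FASN it was -0.02 and 0.27. The signs of these 4 genes changed with the scaling or with pairing on reads in at least 1 line: in the paired cells all 4 were above 0 in both lines, between 0.04 and 0.40. The 2 FASN transcripts did not keep 1 proportion in HCT-116, where NM_004104 took 79.8% of the gene's CPM in live and 60.5% in fixed cells. The rest was the predicted XM_011523538, at 9.57 ± 16.6 and 20.2 ± 28.9 CPM, a difference within the spread over cells. In HepG2 the NM_004104 share was 60.8% and 60.4%.

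**Figure D2:**
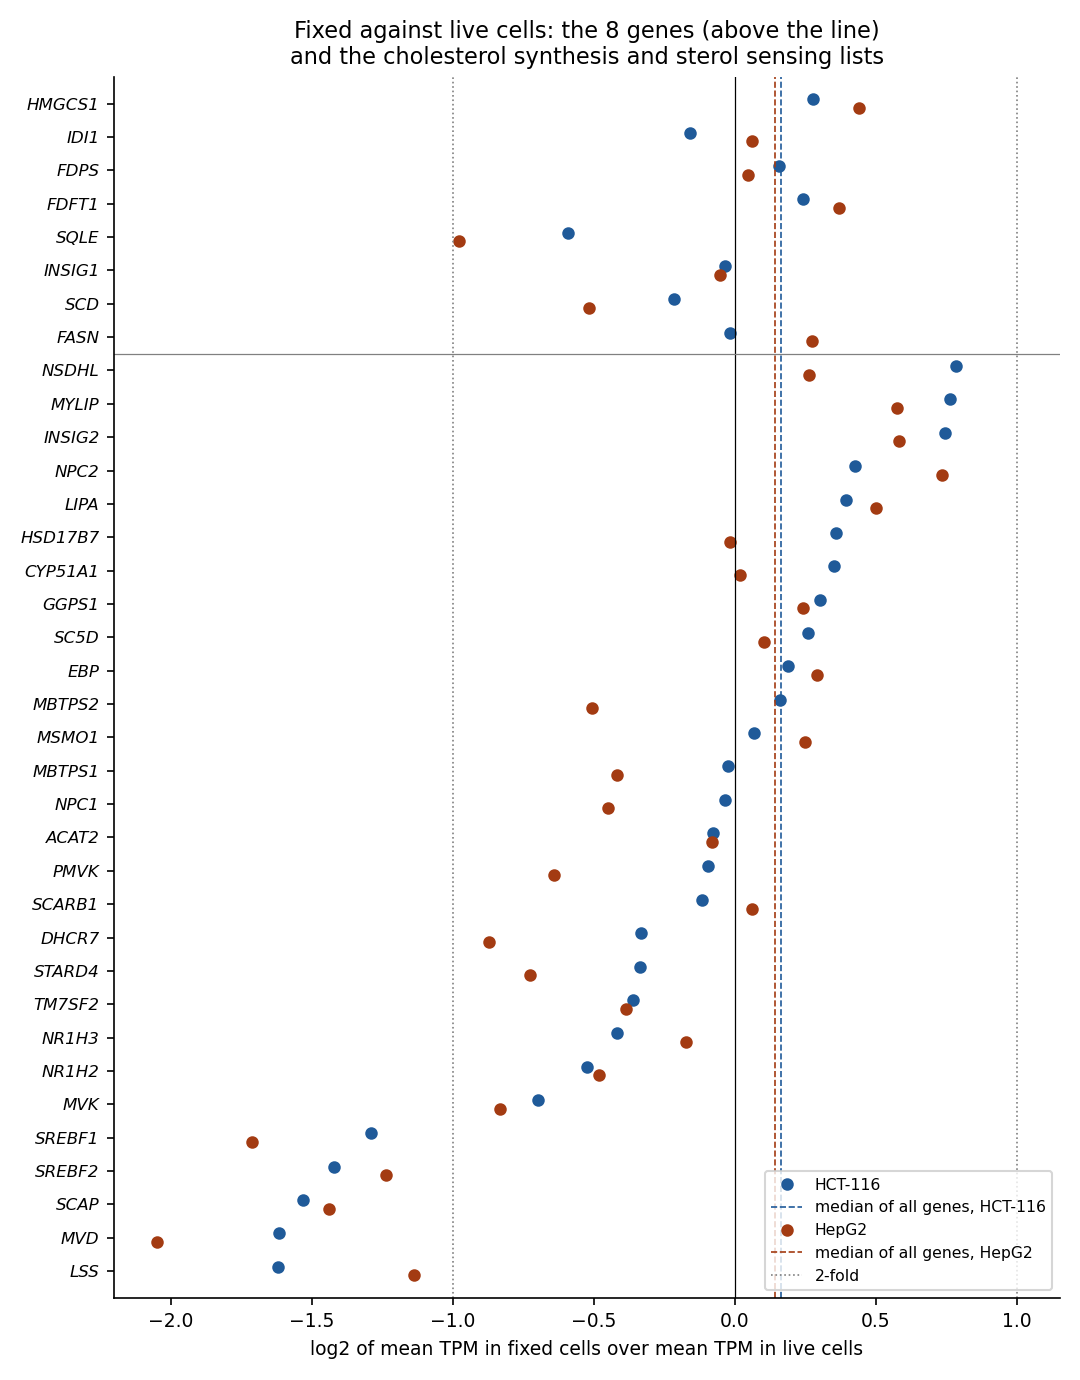
Points are log2 ratios of mean TPM in fixed over live cells for HCT-116 (blue) and HepG2 (red-brown). The 8 genes, above the grey line, all lie inside the dotted 2-fold lines, with SQLE furthest left, while SCAP, SREBF1, SREBF2, MVD and LSS lie beyond the left line in both lines.

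MVD, LSS, SREBF1, SREBF2 and SCAP, of the same system, were 2-fold or more lower in the fixed cells of both lines, in lists whose counts of lower genes were small. Of 14 further cholesterol synthesis genes, all with a mean of 1 TPM or more, 2 were 2-fold or more lower in the fixed cells of each line, and none was 2-fold higher. The median log2 ratio of the list was -0.00 in HCT-116 and -0.05 in HepG2. MVD, the decarboxylase that makes isopentenyl diphosphate, went from 39.6 ± 25.1 to 12.9 ± 12.1 TPM in HCT-116 and from 66.1 ± 45.8 to 15.97 ± 14.1 TPM in HepG2 (log2 -1.62 and -2.05). LSS, which closes the sterol ring, had log2 ratios of -1.62 and -1.14. Of the sterol sensing and uptake list, 3 of 14 genes with a mean of 1 TPM or more were 2-fold lower in fixed HCT-116 cells and 3 of 16 in fixed HepG2 cells, and none was 2-fold higher. The list had a median log2 ratio of -0.08 (HCT-116) and -0.43 (HepG2). The share of all genes 2-fold lower was 10.1% and 11.3%, and counts of 2 or 3 in lists of this size are not far from it.

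The 3 genes of the sterol sensing list were the same in both lines. SREBF1 and SREBF2, which encode the transcription factors, had HCT-116 log2 ratios of -1.29 and -1.42 and HepG2 log2 ratios of -1.71 and -1.24. SCAP, their escort, went from 13.2 ± 7.06 to 4.55 ± 4.805 TPM in HCT-116 and from 9.92 ± 6.35 to 3.65 ± 4.19 TPM in HepG2. In the fatty acid synthesis list, 0 of 20 genes in HCT-116 and 1 of 19 in HepG2 were 2-fold lower, the desaturase FADS2 (log2 -1.05, from 2.26 ± 2.59 to 1.09 ± 1.57 TPM). In the fatty acid oxidation list ACADS, an acyl-CoA dehydrogenase, was the 1 of 14 genes 2-fold lower in each line, at -1.12 and -1.12.

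The reference transcripts of these genes differed from those of the 8 in composition. LSS, MVD, SCAP, SREBF1 and SREBF2, the 5 sterol genes that were 2-fold lower in both lines, had a GC content of 58.05 to 65.5% (median 61.7%), and the other 31 genes of the 8 and both sterol lists had a median of 46.8%. The same was computed over all HCT-116 genes with a mean of 1 TPM or more in at least 1 group and above 0 in both treatments. The median was 59.96% for those 2-fold or more lower in fixed cells and 46.8% for the rest. In HepG2 79.5% of the lower genes had a matched transcript, just under the 80% asked for. Its medians, 57.8% for the lower genes and 46.8% for the rest, are therefore given but not read as a check. SQLE, at 46.5% and 2962 bases, was lower in fixed cells at a GC content close to that of FDFT1 (46.5%) and SCD (46.5%). FASN had 65.3% GC, above all of the 5 lower genes but MVD, with log2 ratios of -0.02 and 0.27. MVK, PMVK, DHCR7, TM7SF2, NR1H2 and NR1H3 also lay in the GC range of the 5, at 58.05 to 62.4%. None of them was 2-fold lower in either line in the ratio of means. All of them had log2 ratios below 0 in both lines, from -0.70 to -0.09 in HCT-116 and from -0.87 to -0.17 in HepG2. With median ratio scaling, MVK (-1.02) and DHCR7 (-1.03) passed 2-fold lower in HepG2. The part of GC content and length in these differences was not tested.

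**Figure D3:**
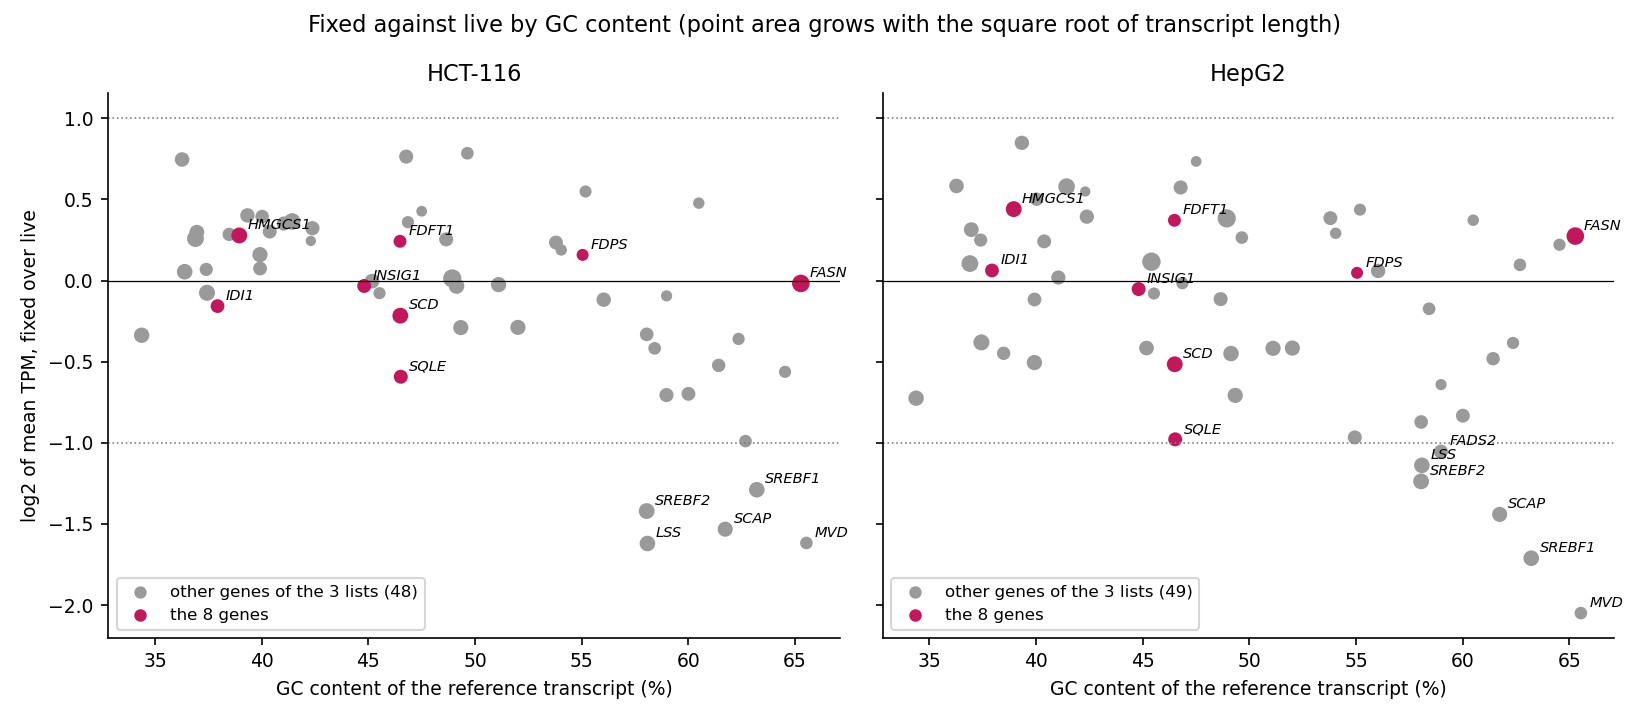
Each point is a gene of the 8 (pink) or of the cholesterol synthesis, sterol sensing and fatty acid synthesis lists (grey), with the GC content of its reference transcript in percent on the x axis and the log2 ratio of mean TPM in fixed over live cells on the y axis. The genes beyond the lower 2-fold line lie at 58.05% GC or above. Other genes in that GC range lie within 2-fold, and FASN lies among the highest GC values with a ratio near 0.

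Between the lines, 3 of the 8 genes were 2-fold or more higher in HepG2 in live cells, and the same 3, SQLE, IDI1 and HMGCS1, in fixed cells. Over all genes 44% in live and 43.2% in fixed cells were 2-fold or more apart. In live HepG2 cells 24.5% were 2-fold or more higher and 19.5% lower, and in fixed cells 24.1% and 19.1%, so 3 of 8 is not far from the background. The tables of the lines are separate, each scaled within its own cells, which bears on every level set across them. SQLE was 3.93-fold higher in live HepG2 cells (85.8 ± 60.1 against 21.8 ± 16.4 TPM) and 3.01-fold higher in fixed cells. Its ratio was the highest of the 8 in live cells under every setting tried, but in fixed cells IDI1 passed it for mean log2(TPM + 1) (1.78 against 1.68), and HMGCS1, INSIG1 and IDI1 did so for mean log2(TPM + 0.1) (2.54, 2.09 and 2.01 against 1.93). IDI1 was 2.32-fold higher in live cells (95.8 ± 77.04 against 41.3 ± 35.5 TPM) and 2.70-fold in fixed cells, and HMGCS1 2.09-fold and 2.34-fold. In the 50 live cells of each line paired on total reads, SQLE kept a log2 ratio of 1.68 while IDI1 was at 0.98 and HMGCS1 at 0.78, under 2-fold. With ribosomal RNA left out, HMGCS1 was also under 2-fold in live cells (0.89).

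INSIG1 and FDPS were higher in HepG2 by less than 2-fold in the ratio of means. INSIG1 stood at 45.1 ± 39.3 against 22.995 ± 24.7 TPM in live cells (log2 0.97) and 43.5 ± 33.1 against 22.5 ± 27.9 TPM in fixed cells (0.95). This call depended on the summary for INSIG1. For mean log2(TPM + 1), mean log2(TPM + 0.1) and the ratio of medians its live values were 1.22, 1.53 and 1.03 and its fixed values 1.52, 2.09 and 1.63, and median ratio scaling gave 1.01 in fixed cells. In live cells paired on total reads it was at 0.42. FDPS stood at 246 ± 114.1 against 133.8 ± 77.1 TPM and 254 ± 163.2 against 149.3 ± 76.4 TPM. For FDPS, 5 transcripts were matched of 7 listed for the gene, and the reads outside them were not measured. Of the matched CPM, NM_001135822 took 40.5% in live HepG2 and 25.7% in live HCT-116 cells, and 42.3% and 24.7% in fixed cells. FDFT1 and FASN had log2 ratios of 0.01 and -0.01 in live cells. SCD went the other way, with 0.644 times the HCT-116 level in live and 0.523 times in fixed HepG2 cells (log2 -0.64 and -0.93). Its log2 ratio was below 0 under every setting tried in both treatments, and passed 2-fold lower in fixed cells paired on total reads (-1.06) and for mean log2(TPM + 1) (-1.06). Of the 14 further cholesterol synthesis genes, 6 were 2-fold higher in HepG2 in both treatments and none lower: ACAT2, DHCR7, EBP, LSS, NSDHL and TM7SF2. Of all genes, 24.5% in live and 24.1% in fixed cells were 2-fold higher. The median log2 ratio of that list was 0.72 in live and 0.54 in fixed cells, beside 0.92 and 0.86 for the 8 genes and 0.10 and 0.09 for all genes. Of the 6, TM7SF2, a sterol reductase, had log2 ratios of 2.13 and 2.11 and LSS 2.01 and 2.50.

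Within each group the 8 genes varied together from cell to cell. In live HCT-116 cells all 28 pairs had a Spearman correlation above 0, from 0.24 to 0.64 with a median of 0.47 over 91 cells. Live HepG2 cells had 0.23 to 0.78 with a median of 0.51 over 68 cells. Any of the 8 paired with any other gene above 0 TPM in at least 50% of the cells had a median of 0.05 in live HCT-116 and 0.08 in live HepG2 cells, and 0.303% and 1.12% of such pairs reached the median of the 28. The cells of a group may share a library preparation and differ in depth. The HCT-116 cells came from 1 experiment, and the HepG2 cells from more than 1 that the labels do not tell apart. The part of a difference between experiments in the HepG2 correlations was not tested. Given the number of genes detected and the total reads of the cell, the median of the partial correlations was 0.45 in live HCT-116 and 0.46 in live HepG2 cells.

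The strongest pair in live HepG2 cells was IDI1 with INSIG1 (0.78), followed by IDI1 with SQLE (0.73), IDI1 with FDFT1 (0.72) and FDPS with FDFT1 (0.70). IDI1 and INSIG1 were also the strongest pair of both fixed groups, at 0.48 in HCT-116 and 0.64 in HepG2. In live HCT-116 cells FDFT1 with FASN (0.64) and SCD with FASN (0.62) led. The pairs of a fatty acid gene with a sterol gene had different values in the lines, a difference that was not tested. In live HCT-116 cells the 12 pairs of a sterol gene with SCD or FASN had a median of 0.48 and the 15 pairs among sterol genes 0.46. In live HepG2 cells these were 0.30 and 0.56. Given the cell cycle scores used below, the 12 and the 15 pairs had medians of 0.25 and 0.38 in live HepG2 cells. In live HCT-116 cells they were then at 0.41 and 0.40. FASN in particular was at 0.23 to 0.31 with the 6 sterol genes in live HepG2 cells, and at 0.36 to 0.64 in live HCT-116 cells. SCD with FASN was at 0.52 in live HepG2 cells.

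**Figure D4:**
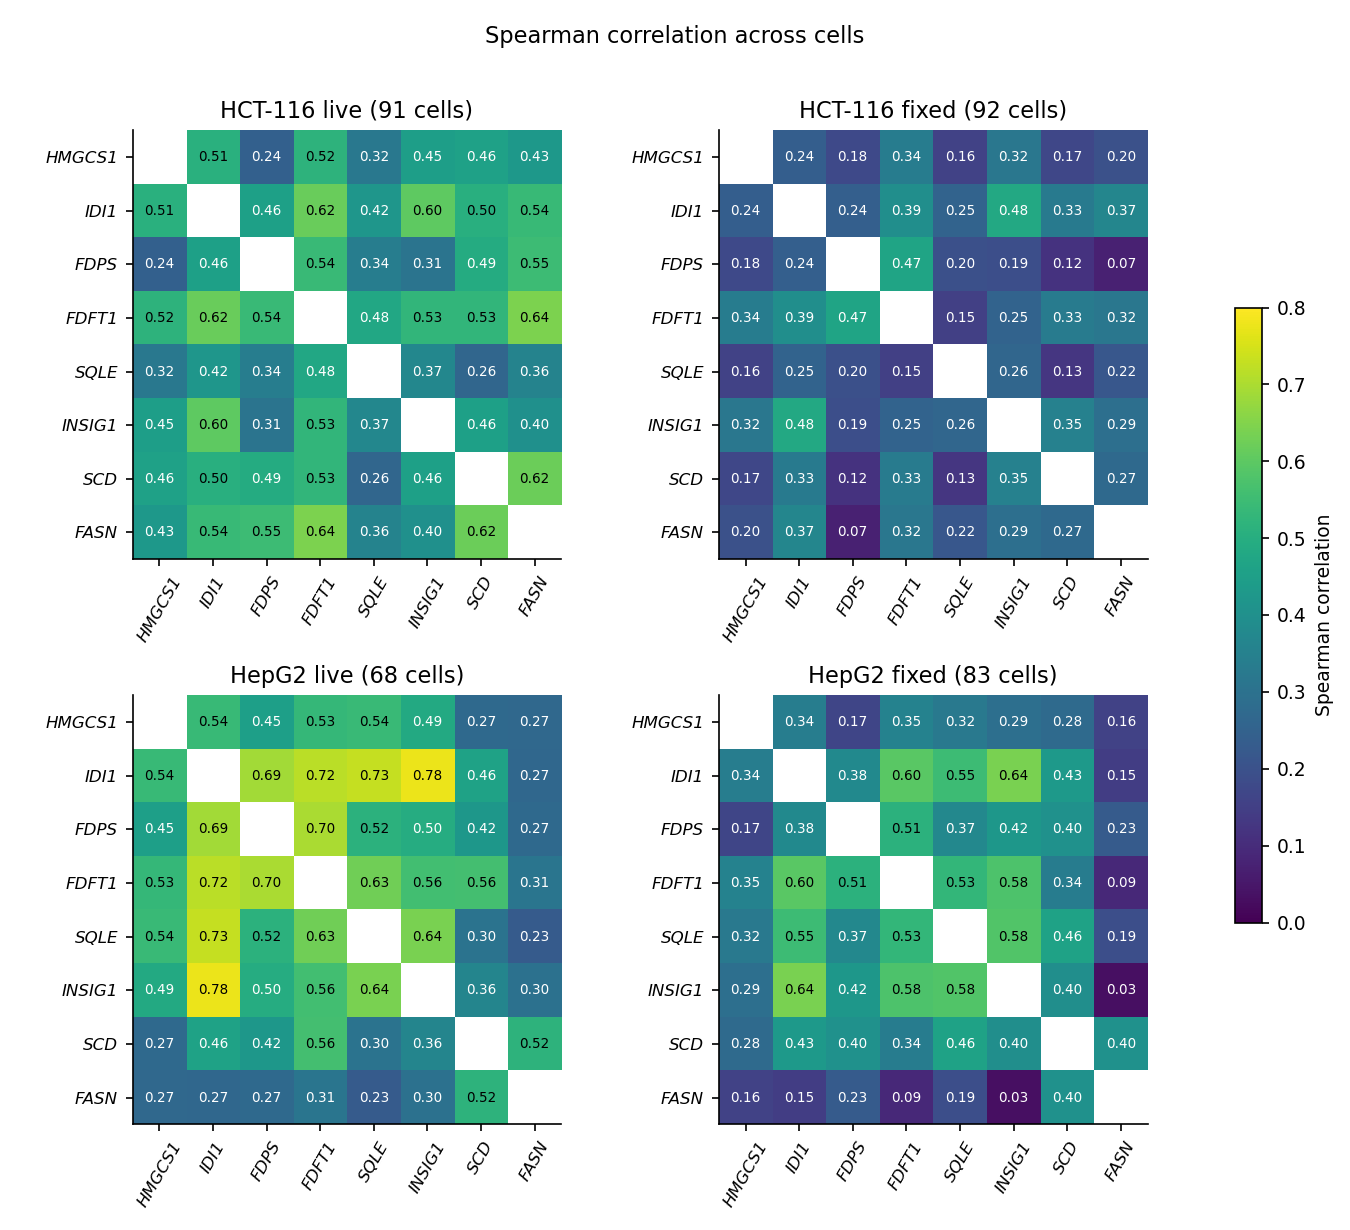
Colour and number give the Spearman correlation of each pair of genes across the cells of 1 line and treatment. Live HepG2 cells show the highest values among IDI1, FDPS, FDFT1, SQLE and INSIG1, with low values in the FASN row, and fixed HCT-116 cells have the lowest median of the 28 pairs.

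Fixed cells had lower correlations. In HCT-116 all 28 pairs were lower in fixed than in live cells, with a median of 0.25 and a range of 0.07 to 0.48 over 92 cells, and 6.91% of pairs with other genes reached that median. In HepG2 24 of 28 were lower, with a median of 0.38 and a range of 0.03 to 0.64 over 83 cells, against 1.21%. The pairs that differed most in HCT-116 were FDPS with FASN, from 0.55 to 0.07, and FDPS with SCD, from 0.49 to 0.12. FDPS with FDFT1 was among those that differed least there, at 0.54 and 0.47. SQLE with SCD was the pair furthest in the other direction in HepG2, at 0.30 in live and 0.46 in fixed cells. The 28 pairs share 8 genes and the same cells, so they are not independent. In 63 live and 63 fixed HCT-116 cells paired on total reads the medians were 0.49 and 0.19, and in 46 and 46 HepG2 cells 0.44 and 0.35. Given cell cycle scores the HepG2 medians were 0.34 and 0.33, with 17 of 28 pairs lower in fixed cells, and the HCT-116 medians 0.41 and 0.16, with all 28 lower.

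The same can be seen by counting, in each cell, how many of the 8 genes lay above their own group median. All 8 did so in 12 of 91 live HCT-116 cells (13.2%), 5 of 92 fixed HCT-116 cells (5.43%), 9 of 68 live HepG2 cells (13.2%) and 6 of 83 fixed HepG2 cells (7.23%). Cells with none of the 8 above numbered 9 live and 0 fixed for HCT-116, and 8 live and 7 fixed for HepG2. Live cells thus held more of both extremes, and the fixed groups more cells in the middle.

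**Figure D5:**
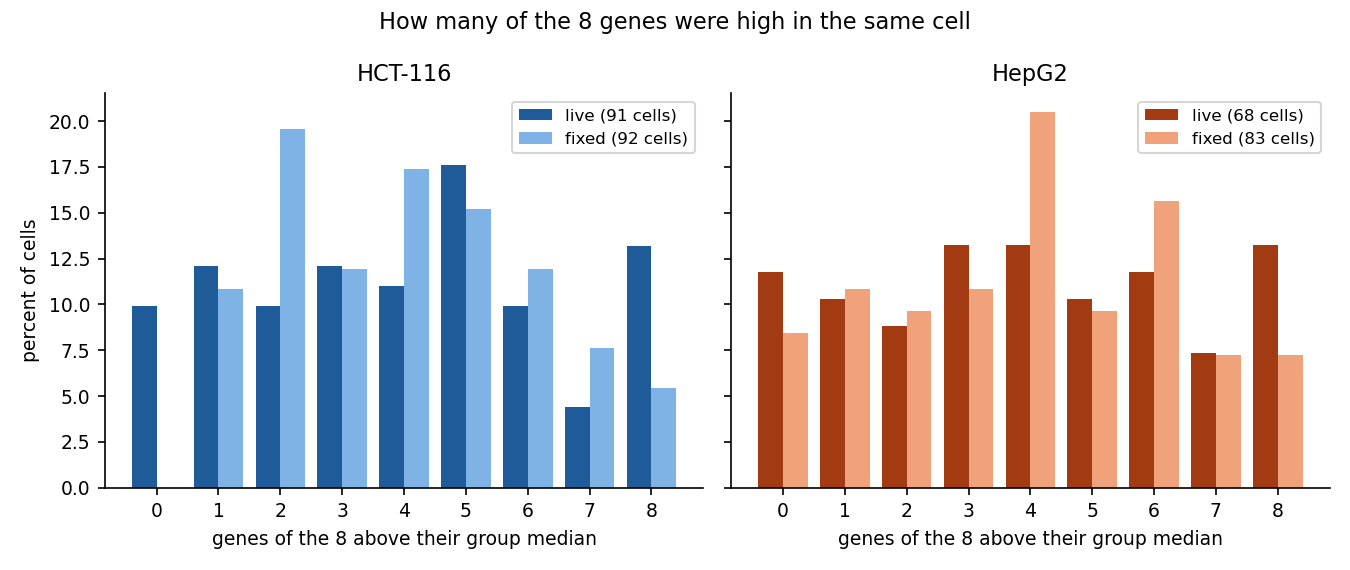
Bars give the percent of cells in which 0 to 8 of the genes lay above the median of their group, for live and fixed cells of each line. Both live groups hold 9.89% or more of their cells at 0 and at 8, and no fixed HCT-116 cell is at 0.

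Genes of sterol synthesis were among those most like the 8. Ranked by the mean correlation with the 8 over live and fixed cells, among 9658 HCT-116 genes above 0 TPM in at least 50% of the cells of both treatments, the first 5 included MVD (0.50 and 0.31), DHCR7 (0.50 and 0.30) and EBP (0.42 and 0.33), with the means in live and fixed cells in brackets. DHCR7 and EBP act on the sterol ring. Among 11224 HepG2 genes they included MSMO1 (0.55 and 0.47), DHCR7 (0.53 and 0.45), ACLY (0.52 and 0.41) and ACAT2 (0.50 and 0.42). MSMO1 is a sterol methyl oxidase, ACLY supplies cytosolic acetyl-CoA and ACAT2 joins acetyl-CoA units at the head of the pathway. Of the 14 cholesterol synthesis genes listed beside the 8, 7 ranked in the first 100 in HCT-116 and 10 in HepG2, against 3 and 2 of 18 fatty acid synthesis genes, 0 of 13 and 0 of 14 sterol sensing and uptake genes and 0 of 13 and 0 of 14 fatty acid oxidation genes. The list medians were 0.35 and 0.44 in live cells for cholesterol synthesis, 0.24 and 0.24 for fatty acid synthesis, 0.07 and 0.14 for sterol sensing and uptake and 0.10 and 0.15 for oxidation, beside 0.06 and 0.11 over all genes. The first 20 also held genes of other processes, named here after their ranks were seen. In HCT-116 these included MCM6, GINS1, FEN1 and PCNA of DNA replication and the splicing factors SRSF1, SRSF2 and SRSF6, with means of 0.30 (MCM6 and PCNA) to 0.35 (SRSF1) in live cells. In HepG2 they included BIRC5, TPX2, TOP2A and NUF2, which act in mitosis, with means of 0.46 (NUF2) to 0.51 (BIRC5 and TOP2A).

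Single genes had neighbours of their own. In HepG2 MSMO1 was among the first 2 for HMGCS1, SQLE, IDI1, FDFT1 and INSIG1, closest to INSIG1 (0.73 live and 0.70 fixed). CYB5B, a cytochrome b5, came second for IDI1 and EBP second for FDPS there, after MSMO1 and ACAT2. SCD had DHCR7 (0.65 live, 0.60 fixed) and LSS (0.66 live, 0.56 fixed). FASN had ARHGDIA (0.44 live, 0.56 fixed) and LSS (0.44 live, 0.56 fixed). In HCT-116 the neighbours of SQLE were LBR (0.35 live, 0.58 fixed) and EIF1AX (0.38 live, 0.52 fixed), and those of FDPS were RPA3 (0.62 live, 0.60 fixed), a subunit of the replication protein RPA, and TUBB (0.57 live, 0.60 fixed), a tubulin. MVD was among the first 2 for HMGCS1, IDI1, FDFT1 and SCD there, DHCR7 for FDFT1, INSIG1 and SCD, and MSMO1 for IDI1 and INSIG1.

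Cell cycle scores moved with some of the genes. The mean of the G2/M genes of the Seurat list correlated with FDPS at 0.56 for live and 0.53 for fixed cells of HCT-116, and at 0.65 and 0.44 for HepG2. In live HepG2 cells it was at 0.73 with IDI1, 0.62 with FDFT1, 0.62 with INSIG1 and 0.57 with SQLE. It was lower with the fatty acid genes there, at 0.20 with SCD and 0.19 with FASN. In fixed HepG2 cells the same score was at 0.46 with IDI1 and 0.09 with FASN. Total reads correlated with IDI1 at 0.48 in live HepG2 cells and at 0.09 in live HCT-116 cells. The part of the cell cycle in the correlations of the 8 genes was not tested beyond the partial values above.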

How the data were processed

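Single cells were sequenced by Smart-seq2. Per the labels and the study's methods, the authors checked reads with FastQC, quantified transcripts with kallisto 0.46.0 on GRCh38, summed them to genes with tximport and kept cells with more than 4000 genes. The deposited gene values are TPM, in 1 table per line. The deposited transcript values are CPM, not divided by length, although they are titled otherwise, and the size of their lowest step gave the total reads of each cell to 0.1 M. TPM is a share of a total, so a large RNA class that differs between groups moves all other genes. The listed genes did not add up to the same total in every cell. For HCT-116 their summed TPM had a median of 993455 (live cells) and 991193 (fixed cells). For HepG2 it was 895442 (live cells) and 961172 (fixed cells), with lowest sums of 756507 and 758299. These unequal sums bear on every level compared between groups. Their part in the differences was not tested.

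Means, medians, SDs and ranges over cells were computed, with log2 ratios of mean TPM over genes with a mean of 1 TPM or more in at least 1 of the groups compared, called at 2-fold. Each line and treatment is 1 sample, so no test was run. Alternatives were rescaling by the median ratio over genes above 0 in 90% of cells, leaving out ribosomal RNA, pseudocounts of 1 and 0.1, medians, other filters, and cells paired on total reads within 5%. Spearman correlations were taken across cells, with cell cycle genes from Seurat 5.3.0. The steps were tested on simulated data. The named genes were the 8, the 5 nearest by mean correlation in each line, the 2 nearest to each of the 8, and pathway genes past 2-fold in fixed against live cells of either line or between lines in both treatments. Some genes that this rule or the lists hold are not reported here, and the counts over lists leave them out. The 8 genes and the lists were chosen with earlier results of these data known. Promoters and transcript lengths came from RefSeq GRCh38.p14. The scripts ran in R 4.3.3 and Python 3.11.15 with pandas 2.3.3 and numpy 2.4.6, and exact intervals came from scipy 1.17.1. Of the labelled cells, 12 had no column and were not analysed here, 4 fixed HCT-116, 1 live HepG2 and 7 fixed HepG2 cells.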

Additional observations from a re-analysis of the deposited data

How the results depend on the processing

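Each line and treatment is 1 sample, which limits every comparison here to a description, and depth is known only to 0.1 M reads. No paired analysis was possible because the numbers in the labels name single cells and no group holds more than 1 replicate that the labels tell apart. No direction called at 2-fold turned round under any alternative. In HCT-116 fixed against live cells the median log2 ratio of the 8 genes was -0.33 with ribosomal RNA left out and 0.24 in cells paired on total reads, against -0.03. In HepG2 it was 0.32 in paired cells, against 0.05, and 1 gene, SQLE, passed 2-fold under median ratio scaling, with ribosomal RNA left out, and for mean log2(TPM + 1) and log2(TPM + 0.1), against 0. Between live cells of the lines, pairing on total reads left 1 gene past 2-fold and a median of 0.60, against 3 and 0.92. Between fixed cells, mean log2(TPM + 1) and mean log2(TPM + 0.1) each gave 5 genes, with medians of 1.13 and 1.38, and the ratio of medians gave a median of 1.12, against 3 and 0.86. The median correlation of the 28 pairs in live HepG2 cells was 0.36 under median ratio scaling and 0.34 given the cell cycle scores, against 0.51. The cell cycle adjustment, the correlations in paired cells and leaving out the 6 similar HepG2 columns were chosen after seeing the data. Of the remaining alternatives to these summary values 71 stayed within the set limits. The causes of these shifts were not tested. Thinned shares of HMGCS1 and INSIG1 were not taken as an alternative to the share of cells above 0, because their matched transcripts fell short of the 95% agreement, and leaving out equal columns gave no value in HCT-116, which had none.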

Other observations

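Several fatty acid genes other than SCD and FASN were 2-fold or more lower in HepG2, while SCD and FASN were not in the ratio of means. Of 20 fatty acid synthesis and binding genes with a mean of 1 TPM or more, 6 were 2-fold or more lower and 0 higher in live HepG2 than in live HCT-116 cells, and 7 lower and 2 higher in fixed cells, beside 19.5% and 19.1% of all genes that were lower. ACACA, ACSL4, FABP5, HSD17B12 and ME1 were lower in both treatments. FABP5, a fatty acid binding protein, had a mean of 574 ± 228 TPM in live HCT-116 and 58.1 ± 41.5 TPM in live HepG2 cells (SD over cells). ACSL4, an acyl-CoA synthetase that prefers polyunsaturated chains, had log2 ratios of -4.11 and -3.99. Its HepG2 means were low, at 0.528 ± 1.17 TPM live and 0.596 ± 1.21 TPM fixed. It met the mean of 1 TPM only through HCT-116, at 9.13 ± 6.24 and 9.48 ± 8.12 TPM. Over the list the log2 ratio had a median of -0.70 (live) and -0.55 (fixed). Of 14 fatty acid oxidation genes, ACAA2, ECHS1 and ETFA were 2-fold higher and ACADM lower in HepG2 in both treatments, beside 24.5% (live) and 24.1% (fixed) of all genes that were higher, with list medians of 0.43 and 0.48. Of the 16 genes of the sterol sensing list, the cholesterol exporters ABCA1 and ABCG1 and the ubiquitin ligase MYLIP were 2-fold higher and NPC2 and STARD4 lower in HepG2 in both treatments, which is not far from the shares of all genes. ABCA1 and ABCG1 met the mean of 1 TPM only through HepG2 in both treatments, and MYLIP in live cells. The live means of ABCA1, ABCG1 and MYLIP were 0.0378, 0.0367 and 0.666 TPM in HCT-116. In live HepG2 cells they were 1.07 ± 1.80, 3.74 ± 6.67 and 3.65 ± 5.41 TPM.

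The cells in which HMGCS1 was listed at 0 in HCT-116 had a median of 2 M reads among 19 live and 1.5 M among 29 fixed cells, and the cells above 0 had 2.55 and 2.3 M. For INSIG1 the 8 live cells at 0 had 2.55 M and the 16 fixed cells 1.6 M, against 2.5 and 2 M in cells above 0. The 5 fixed cells with IDI1 at 0 ran from 0.2 to 4.6 M reads. The part of depth in these zeros was not tested.

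Genes close in sequence or place to the 8 had low mean values. The mean of the pseudogene copy FDPSP2 was at most 0.952 TPM in any group, that of IDI2, the neighbouring isomerase gene, at most 0.996 TPM and that of IDI2-AS1 at most 1.49 TPM. Smart-seq2 libraries do not mark strand and kallisto shares reads between like transcripts, so the split of reads between FDPS and FDPSP2 and between IDI1 and its neighbours is uncertain, by an amount not measured here. In single cells IDI2 reached 25.3 TPM and IDI2-AS1 25.8 TPM.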
